A study of Sus scrofa domesticus with 34 samples.

Results

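TBR1, FEZF2 and NEUROD6 are transcription factor genes that mark excitatory neurons of the cerebral cortex. They were read from 34 pig libraries by the Ensembl identifiers paired with their symbols (ENSSSCG00000015891, ENSSSCG00000011487 and ENSSSCG00000039501), and are 3 of 31907 genes counted in each library. Each symbol had 1 identifier. The libraries were made with a 3′ mRNA kit (QuantSeq), which yields 1 read position at the 3′ end per polyadenylated RNA, so that counts are comparable between long and short transcripts. All 34 libraries are labelled as muscle of domestic swine. Doses are given per kg of feed, grower feed first and finisher feed second. The 25(OH)D diet (n = 8) held 2000 and 1500 IU of 25(OH)D with no cholecalciferol. The combination diet (n = 8) held 2000 and 1500 IU of cholecalciferol with 1000 IU of 25(OH)D in each feed. The increased cholecalciferol diet (n = 10) held 3000 and 2500 IU of cholecalciferol, and the standard cholecalciferol diet (n = 8), the control, held 2000 and 1500 IU. Cholecalciferol is vitamin D3, and 25(OH)D is its form hydroxylated on carbon 25. The increased cholecalciferol group had 6 females and 4 castrated males, and each other group had 4 of each.

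Excitatory neurons of the cerebral cortex are born in sequence and settle in layers, and a small set of transcription factors gives each layer its type of projection neuron. In mice, TBR1, a T-box factor, is needed for the deep neurons of layer 6 that project to the thalamus, and FEZF2, a zinc finger factor, for the neurons of layer 5 that project below the forebrain. NEUROD6, a basic helix-loop-helix factor, is found in postmitotic excitatory neurons of cortex and hippocampus across layers. CBLN1 and CBLN3, set beside them here, encode secreted cerebellin proteins of cerebellar granule cells, and CBLN1 joins the synapses of these cells to Purkinje cells.

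Total gene counts ranged over libraries from 1.34 M to 30.4 M (M, mega; median 6.67 M). They were 1.34 M to 2.69 M in 5 libraries of file numbers 30 to 34 (4 of the combination group and 1 of the 25(OH)D group), 16.8 M to 30.4 M in file numbers 25 to 29 and 4.08 M to 13.2 M in the other 24. These numbers are runs in the names of the deposited files, and what they stand for is not given. No pair of the 561 library pairs had identical counts. The summed level of the Y-linked genes KDM5D and EIF1AY was 5.71 to 7.83 CPM in the 4 libraries of file numbers 30 to 34 labelled female, against 0.588 to 4.77 CPM in the other 14 females and 6.70 to 24.5 CPM in 16 castrated males. Results whose call, sign or extreme value changed without file numbers 30 to 34 are therefore also given without them. Against the tissue label, the mean log2 level of 10 general neuron genes was above that of 11 skeletal muscle genes with an identifier (of 18 listed) in 34 of 34 libraries. The summed levels were 4565 to 10451 CPM for the neuron genes and 978 to 7076 CPM for the muscle genes. ACTA1, skeletal muscle actin, was present at 482 to 4026 CPM. The muscle regulators MYOD1, MYOG and PAX7, which are among the 11, had no count in 15, 12 and 18 libraries and reached at most 1.96 CPM. Listed genes without an identifier, among them the myosin heavy chain genes, MYLPF, TTN and MB, are missing from the muscle mean and sum.

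TBR1 was counted in every library, with 13 to 1177 reads. Its level was 1.74 CPM in the lowest library, 22.9 CPM at the median and 62.9 CPM in the highest (mean 25.2 ± 16.9, SD, n = 34). CPM are counts of a gene divided by the total gene counts of its library in M. The lowest was standard cholecalciferol replicate 1 (13 reads, exact Poisson 95% interval 0.928 to 2.98 CPM) and the highest was increased cholecalciferol replicate 7 (535 reads, 57.7 to 68.5 CPM). These libraries differed 36.1-fold (95% interval 20.9 to 68.2). Such intervals cover only the counting error of independent reads. Reads without molecular identifiers need not be independent molecules, so the intervals can be too narrow. The spread between libraries was far larger than these intervals for TBR1.

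FEZF2 was the least abundant of the factors, with 2 to 285 reads per library. Its level was 0.152 CPM at the lowest, 7.03 CPM at the median and 17.8 CPM at the highest (mean 7.24 ± 4.62, SD, n = 34). The highest, standard cholecalciferol replicate 3 (102 reads), was 117-fold above the lowest, increased cholecalciferol replicate 1 (2 reads). With 2 reads at the lower end, the 95% interval of this ratio ran from 31.6 to 979. NEUROD6 had 1 to 660 reads per library. Its level was 0.149 CPM at the lowest, 11.7 CPM at the median and 24.2 CPM at the highest (mean 11.2 ± 6.39, SD, n = 34). Combination replicate 8 (40 reads in one of the shallow libraries) was 162-fold above 25(OH)D replicate 2 (1 read), with a 95% interval of 27.5 to 6569. Without file numbers 30 to 34 the highest was combination replicate 4 (660 reads, 21.7 CPM), 146-fold above the lowest (95% interval 26.1 to 5768). For comparison, CBLN1 spanned 118 to 1172 CPM (9.93-fold) and CBLN3 spanned 88.7 to 1146 CPM (12.9-fold). In bulk libraries, fewer cells of a type and less RNA per cell cannot be told apart.

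**Figure D1:**
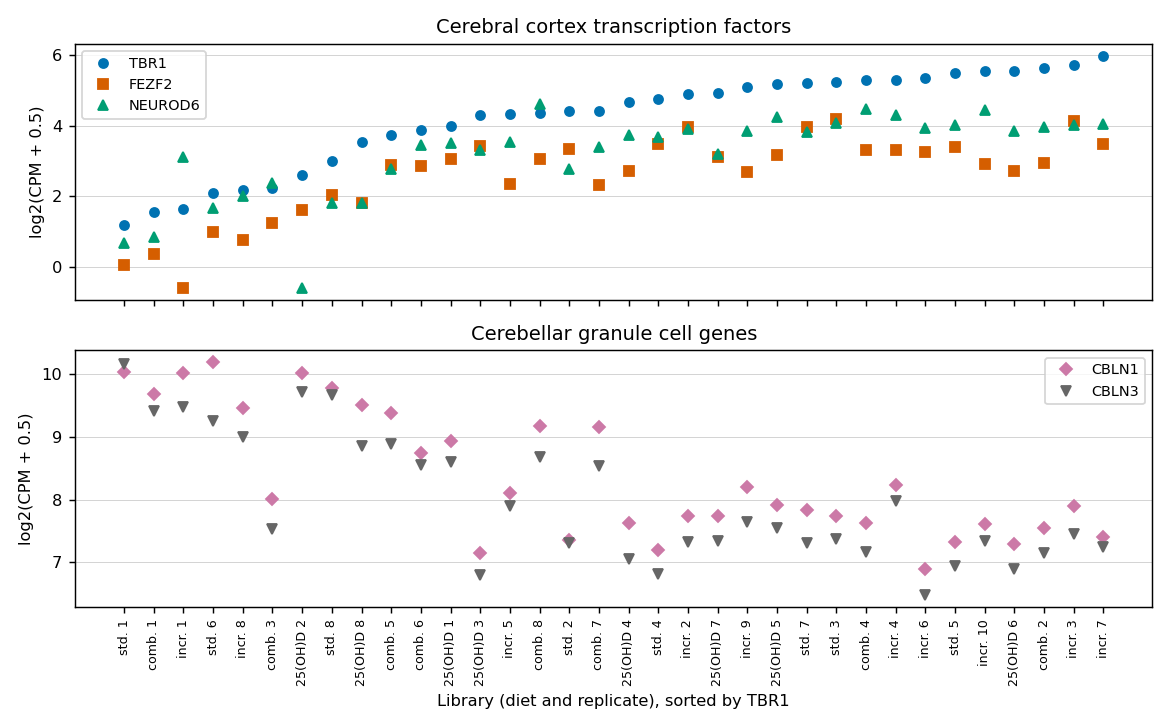
Levels as log2(CPM + 0.5) of TBR1, FEZF2 and NEUROD6 (upper panel) and of CBLN1 and CBLN3 (lower panel). The 34 libraries are sorted by TBR1 from lowest to highest in both panels. TBR1 runs from 1.74 to 62.9 CPM with no step above 0.54 log2 units between neighbours.

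By the gaps between sorted values, no factor was split into 2 separate clusters. Gaps cannot tell a graded level from 2 states that overlap. On the scale of log2(CPM + 0.5), the values spanned 4.82 units for TBR1, 4.81 for FEZF2 and 5.25 for NEUROD6. The widest gap between neighbours in sorted order was 0.54 for TBR1 (8 libraries below, 26 above). For FEZF2 it was 0.67 and for NEUROD6 1.28, each separating only the lowest library. Among gaps with at least 6 libraries on each side, the widest were 0.54, 0.36 and 0.40 for TBR1, FEZF2 and NEUROD6. None reached 1 unit, the size set as separating 2 clusters. Most libraries lay near the top of the scale. With the log2 range divided into 3 equal parts, low to high, TBR1 had 7, 8 and 19 libraries, FEZF2 5, 6 and 23, and NEUROD6 3, 7 and 24. CBLN1 leaned the other way, with 17, 6 and 11 libraries. CBLN3 had 19, 8 and 7.

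The factors mostly kept 1 order within a library. The layer 6 factor TBR1 was the highest of the 3 in 31 libraries. In 21 of these NEUROD6 came next and the layer 5 factor FEZF2 was lowest, and in 9 FEZF2 was above NEUROD6. In 1, 25(OH)D replicate 8, both had 4 reads. NEUROD6 led in the other 3. Increased cholecalciferol replicate 1 stood out among these, with NEUROD6 at 8.12 CPM (107 reads), TBR1 at 2.58 CPM (34 reads) and FEZF2 at 0.152 CPM (2 reads). Combination replicates 3 and 8 had NEUROD6 over TBR1 ratios of 1.11 and 1.21, whose exact 95% intervals (0.558 to 2.23 and 0.745 to 1.98) take in 1. The opposite case was 25(OH)D replicate 2, where NEUROD6 had 1 read beside 37 reads of TBR1 and 17 of FEZF2.

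The ratios of the factors varied by more than the counting error of independent reads in many libraries. FEZF2 stood at 0.0588 to 0.538 of TBR1 (median 0.302), below 1 in every library, and the exact interval of 15 libraries left out the median. NEUROD6 stood at 0.0270 to 3.15 of TBR1 (median 0.485), with 16 intervals that left it out. NEUROD6 over FEZF2 ranged from 0.0588 to 53.5 (median 1.65, above 1 in 24 libraries), with 13 such intervals. The amount of each transcript that is turned into reads can differ between genes, so these ratios compare libraries better than they compare genes. Reads of TBR1 and of a gene that overlaps it in RefSeq (Sscrofa11.1), the proteasome gene PSMD14, could be mixed if strand was not used. PSMD14 ranged from 12.2 to 54.9 CPM, and its r with TBR1 over libraries was -0.04. NEUROD6 overlaps CCDC129 there, which was not measured under that symbol.

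**Figure D2:**
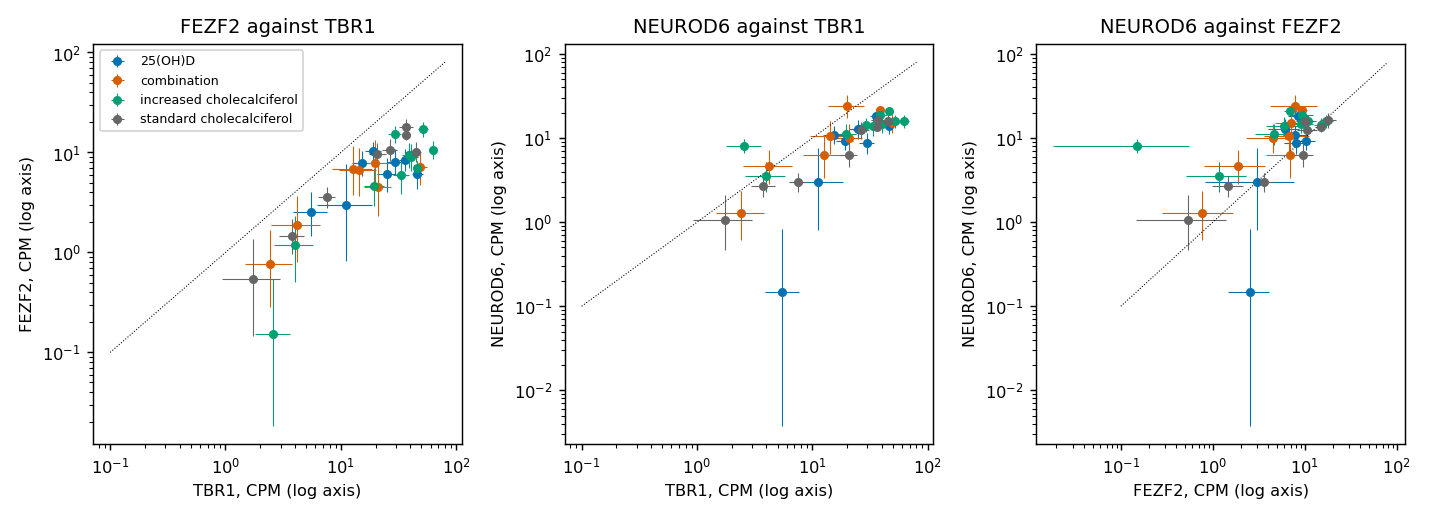
FEZF2 against TBR1, NEUROD6 against TBR1 and NEUROD6 against FEZF2 in 34 libraries, in CPM on log axes with exact Poisson 95% intervals. Colours give the diet and the dotted line marks equal levels. All FEZF2 points lie below TBR1, and the NEUROD6 points farthest from the rest are increased cholecalciferol replicate 1 (8.12 CPM) and 25(OH)D replicate 2 (0.149 CPM).

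The 3 factors went up and down together across libraries. All correlations that follow are on log2(CPM + 0.5) over 34 libraries, with permutation p-values (100000 resamples, two-sided, smallest possible 1e-05) adjusted by the Benjamini-Hochberg method over 18 relations. TBR1 and FEZF2 had r = 0.90 and rho = 0.73 (adjusted p = 2.25e-05 for r and 6e-05 for rho), and r = 0.86 without the 2 libraries farthest from the median. TBR1 and NEUROD6 had r = 0.82 and rho = 0.84 (adjusted p = 2.25e-05 and 6e-05), and r = 0.84 without the farthest 2. FEZF2 and NEUROD6 had r = 0.71 and rho = 0.68 (adjusted p = 4e-05 and 6e-05), and r = 0.71 without the farthest 2. The deep-layer pair thus had the highest r of the 3 pairs, though not the highest rho, and a difference between pairs was not tested.

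All 3 factors were negatively correlated with the cerebellar genes. With CBLN1, r was -0.82 for TBR1, -0.75 for FEZF2 and -0.71 for NEUROD6 (adjusted permutation p = 2.25e-05 for each), and rho was -0.75, -0.71 and -0.58 (adjusted p = 6e-05, 6e-05 and 0.000945). Without the 2 libraries farthest from the median, r was -0.78, -0.70 and -0.65. With CBLN3, r was -0.83, -0.75 and -0.74 (adjusted p = 2.25e-05 for each), and rho was -0.75, -0.69 and -0.57 (adjusted p = 6e-05, 7.71e-05 and 0.00118). Without the farthest 2, r was -0.78, -0.70 and -0.65. Without file numbers 30 to 34, r with CBLN1 was -0.85 for TBR1, -0.81 for FEZF2 and -0.78 for NEUROD6, and within file numbers 1 to 24 it was -0.84, -0.82 and -0.75. CPM are shares of 1 total. With library sizes scaled by TMM in place of totals, r with CBLN1 was -0.83, -0.77 and -0.75. Within file numbers 1 to 24, rho of NEUROD6 was -0.45 with CBLN1 and -0.44 with CBLN3 (adjusted permutation p = 0.0602 and 0.0620), which missed the threshold that r passed. Single libraries went against the direction: combination replicate 8, the highest in NEUROD6 (24.2 CPM), had CBLN1 at 578 CPM, and increased cholecalciferol replicate 1 had NEUROD6 at 8.12 CPM beside CBLN1 at 1035 CPM.

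General measures of the libraries gave weak relations that missed the threshold, and a difference from the relations above was not tested. With the mean of 10 general neuron genes, r was -0.36 for TBR1, -0.32 for FEZF2 and -0.30 for NEUROD6 (adjusted permutation p = 0.0701, 0.110 and 0.127; rho -0.25, -0.21 and -0.19). With the mean of the 11 skeletal muscle genes, r was -0.07, -0.03 and 0.08 (adjusted permutation p = 0.885, 0.961 and 0.885; rho -0.21, -0.25 and -0.05). With log2 of total counts, r was -0.01, -0.05 and -0.00 (adjusted permutation p = 0.988, 0.922 and 0.988; rho 0.09, 0.12 and 0.05).

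Relations were also computed on either side of the widest gap of CBLN1. That gap was 0.50 log2 units, below the 1 unit set as separating 2 clusters. This split was made on CBLN1 itself after the values were seen, and the difference between its sides was not tested. In the 13 libraries above the gap (CBLN1 at 427 to 1172 CPM), TBR1 ranged from 1.74 to 20.8 CPM, FEZF2 from 0.152 to 7.86 CPM and NEUROD6 from 0.149 to 24.2 CPM. There r with CBLN1 was -0.79 for TBR1, -0.76 for FEZF2 and -0.70 for NEUROD6 (permutation p adjusted over 9 relations 0.00540, 0.00670 and 0.0107), and rho was -0.81, -0.74 and -0.81 (adjusted 0.00272, 0.00687 and 0.00272). In the 21 libraries below it (CBLN1 at 118 to 301 CPM), TBR1 ranged from 4.19 to 62.9 CPM, FEZF2 from 1.86 to 17.8 CPM and NEUROD6 from 4.66 to 21.7 CPM. There r was -0.20, -0.22 and 0.04 (adjusted permutation p = 0.579, 0.579 and 0.989), and rho was -0.18, -0.22 and 0.07 (adjusted 0.667, 0.667 and 0.759). TBR1 and NEUROD6 had r = 0.67 and rho = 0.75 above the gap (adjusted permutation p = 0.0144 and 0.00620), and r = 0.82 and rho = 0.73 below it (adjusted 0.000360 and 0.00279). TBR1 and FEZF2 had r = 0.93 and rho = 0.91 above (adjusted permutation p = 0.000180 and 0.000540). Below, they had r = 0.64 (adjusted permutation p = 0.0390) but rho = 0.24 (adjusted 0.667).

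All 5 libraries of file numbers 30 to 34 lay above the gap, with CBLN1 at 427 to 732 CPM and TBR1 at 11.2 to 20.8 CPM. In the 8 libraries above the gap without them, r with CBLN1 was -0.68 for TBR1, -0.62 for FEZF2 and -0.54 for NEUROD6, and none passed the threshold (adjusted exact permutation p = 0.186, 0.186 and 0.260). The rho was -0.48, -0.33 and -0.62 (adjusted exact permutation p = 0.481, 0.481 and 0.345). TBR1 with NEUROD6 had r = 0.39 there (adjusted exact permutation p = 0.390), and TBR1 with FEZF2 had r = 0.95 (adjusted 0.00469).

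Combination replicate 3 stood apart in this pattern. It had low levels of the factors (4.19 CPM TBR1, 1.86 CPM FEZF2 and 4.66 CPM NEUROD6) with CBLN1 below the gap. Without it, TBR1 in the other 20 libraries below the gap was at least 19.1 CPM. In those 20, r of TBR1 was 0.69 with NEUROD6 (adjusted permutation p = 0.00666), but only 0.21 with FEZF2 (adjusted 0.915). The r of TBR1 with CBLN1 was -0.02 there (adjusted permutation p = 0.931), and -0.86 over the 33 libraries.

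**Figure D3:**
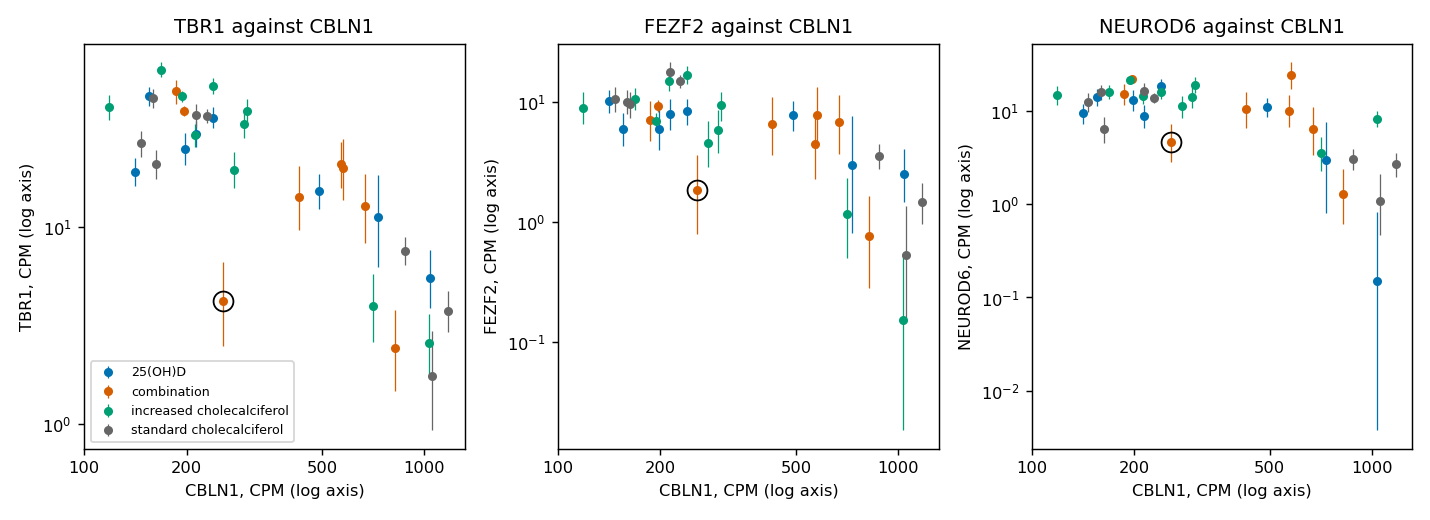
TBR1, FEZF2 and NEUROD6 against CBLN1, in CPM on log axes, in 34 libraries with exact Poisson 95% intervals. Colours give the diet, and the circle marks combination replicate 3, with 4.19 CPM of TBR1 beside low CBLN1. The 13 libraries with CBLN1 of 427 CPM or more have TBR1 of at most 20.8 CPM.

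Within single diets the negative r of TBR1 with CBLN1 passed the threshold in 3 of 4 after adjustment over 9 relations, and the rho in none. By exact permutation for groups of 8 and permutation for the group of 10, r was -0.86 within the 25(OH)D group (adjusted p = 0.0155), -0.53 within the combination group (adjusted p = 0.273), -0.91 within the increased cholecalciferol group (adjusted p = 0.00664) and -0.92 within the standard cholecalciferol group (adjusted p = 0.0102). The rho was -0.67, -0.69, -0.75 and -0.71 in the same order of diets (adjusted permutation p = 0.238, 0.125, 0.0534 and 0.0935). Without replicate 3, the combination group had r = -0.82 (adjusted exact permutation p = 0.0353) and rho = -0.89 (adjusted 0.0554). FEZF2 with CBLN1 had r = -0.81, -0.36, -0.87 and -0.89 in the same order of diets, and NEUROD6 had -0.81, -0.48, -0.74 and -0.89. These r passed the threshold except within the combination group (adjusted permutation p = 0.386 and 0.296). The rho was -0.60, -0.43, -0.60 and -0.62 for FEZF2 and -0.52, -0.45, -0.59 and -0.67 for NEUROD6. None of these rho passed (adjusted permutation p = 0.0921 to 0.327).

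The genes most like each factor over the libraries are given as a description, since all points share the same libraries. Among genes past the expression filter with a symbol, RGS4, a regulator of G protein signalling, had the highest r with TBR1 (0.97, at 24.9 to 672 CPM). It was followed by LHX2, a LIM homeobox factor of the developing cortex (0.95), C11orf87 (0.95), MRTFB, a coactivator of serum response factor (0.95), and STUM (0.95). The lowest r with TBR1 were those of MID1, a ubiquitin ligase (-0.89), PRDX1, a peroxide-reducing enzyme (-0.88), DAO, D-amino acid oxidase (-0.88), DNM3, a dynamin (-0.87), and PDGFD, a growth factor (-0.87). Of 13973 genes, 1.74% had r of at least 0.8 with TBR1 and 1.31% had r of -0.8 or lower.

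FEZF2 was most like GDA, guanine deaminase (r = 0.94), ARC, an activity-induced synaptic gene (0.93), CAMK2A, the kinase of excitatory synapses (0.92), CPNE5, a copine (0.92), and FAM163B (0.92). Its lowest r were those of PDGFD (-0.88), NEBL, an actin-binding nebulette (-0.85), SPON1, a secreted spondin (-0.85), TANC1, a synaptic scaffold (-0.84), and the receptor FGFR1 (-0.84). NEUROD6 was most like NECAB1, a neuronal calcium-binding protein (0.89), the kinase PAK6 (0.89), TAFA1, a secreted protein (0.88), ZMAT4 (0.86) and LRFN2, a synaptic adhesion protein (0.86). Among its lowest r were those of ABTB1 (-0.84), NIBAN2 (-0.82), WWP2, a ubiquitin ligase (-0.81), and ASRGL1, an asparaginase (-0.80). Of 13973 genes, 1.22% had r of at least 0.8 with FEZF2 and 0.408% with NEUROD6, and 0.372% and 0.0429% had r of -0.8 or lower.

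Other cortex genes were grouped by role, with their r with TBR1 beside a median of -0.19 and a share of 32.2% above 0 over all 13973 genes. Of 12 genes of cortical identity, 7 passed the filter, 6 had r above 0, and the median was 0.88. LHX2 (0.95) and MEF2C, a factor of maturing neurons (0.93), were highest. The exception was NEUROD2, a relative of NEUROD6 (-0.69, at 204 to 1045 CPM), and EMX2 had 0.67. EMX1, a homeobox factor of the cortex, did not pass the filter. It had no count in 20 libraries and reached at most 0.717 CPM, and whether its transcript was absent was not tested. Of 8 genes of excitatory pyramidal cells all were measured and 7 had r above 0 (median 0.87), led by the adhesion molecule ICAM5 (0.94) and CAMK2A (0.93). NRGN, a calmodulin-binding protein, had 0.42 and the vesicular glutamate transporter SLC17A7 had -0.00.

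The layer lists did not move as blocks. Of 10 upper-layer genes, 6 passed the filter and 4 had r above 0 with TBR1 (median 0.72). CUX2, a homeobox factor, had 0.93 and RASGRF2 0.89, whereas CUX1 had -0.11 and WFS1 -0.01. Of 8 layer 5 genes, 6 passed the filter and 2 had r above 0 (median -0.25). LDB2, a cofactor of LIM factors, had 0.91 and FOXO1 had 0.73, whereas PCP4 (-0.83) and ETV1 (-0.80) had low r. PCP4 is also known from Purkinje cells, and ETV1 from cerebellar granule cells, and whether this bears on their r was not tested. BCL11B, a factor downstream of FEZF2 in mouse layer 5, had no count in 27 libraries and at most 0.706 CPM. The oligodendrocyte gene CNP likewise had no count in 17 libraries, while MBP had at least 1314 CPM. Whether counts near 0 mean absent transcripts was not tested. Of 12 layer 6 and subplate genes, 9 passed the filter and 8 had r above 0 (median 0.34). SEMA3E, a guidance cue, had 0.82 and SULF1 0.76, whereas NR4A2, a nuclear receptor, had -0.68 and TLE4, a corepressor, 0.05. Over all genes, 32.2% had r above 0 with TBR1, 31.9% with FEZF2 and 35.1% with NEUROD6. With FEZF2 the medians of the upper-layer, layer 5 and layer 6 lists were 0.58, -0.14 and 0.26, and with NEUROD6 they were 0.66, -0.30 and 0.31.

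Cortical interneuron genes mark inhibitory and not excitatory cells. Of 10, 9 passed the filter and 7 had r above 0 with TBR1 (median 0.78). Over all 13973 genes, 32.2% had r above 0 and the median was -0.19. The neuropeptides NPY (0.93) and SST (0.92) led, while the GABA-making enzyme GAD2 and the calcium buffer PVALB both had -0.13. Cerebellar genes showed the opposite direction. Of 15, 13 passed the filter and 13 had r below 0 (median -0.81), where all genes had the median of -0.19 and the share of 32.2% above 0. CBLN1 and CBLN3, whose r is given above, are among these 13. ZIC4 (-0.85) and ZIC2 (-0.84), zinc finger factors, were lowest, and BARHL1 (-0.69) and BARHL2 (-0.74), homeobox factors, were nearest to 0. Both lists were written with results of these libraries known.

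Lists of other brain regions had medians from -0.40 to 0.19. For the striatum, 5 of 9 genes passed the filter, with a median of 0.10, from the dopamine receptor DRD1 (0.84) and TAC1 (0.62) to PENK (0.10) and PDE10A (-0.31). For the hippocampus, where NEUROD6 is also found, 4 of 5 passed, with a median of -0.40, from C1QL2 (0.39) and ZBTB20 (-0.26) to PROX1 (-0.54) and FIBCD1 (-0.69). For the thalamus, 5 of 7 passed, with a median of 0.02, from SLC17A6 (0.42) and TCF7L2 (0.37) to PRKCD (-0.70) and RORA (-0.75). Of 8 hindbrain and spinal cord genes only SLC5A7 passed (r = 0.19). HOXB4 and CHAT had no count in any of the 34 libraries, and whether their transcripts were absent was not tested.

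Among cell types, 10 of 10 neuron genes passed with a median r of -0.15, from SYN1 (0.32) and MAP2 (0.18) to RBFOX3 (-0.62) and STMN2 (-0.70). Of 7 oligodendrocyte genes 5 passed, all with r above 0 (median 0.37), beside 32.2% of all genes. CLDN11 (0.44) and MOG (0.39) were highest and MBP (0.29) was among the lowest. All 6 astrocyte genes passed, with a median of 0.02, from SLC1A2 (0.76) and GJA1 (0.52) to AQP4 (-0.33) and GFAP (-0.41). For skeletal muscle, 8 of the 11 genes with an identifier (18 listed) passed, with a median of 0.01. They ran from ACTA1 (0.11) and TNNT3 (0.10) to MYL1 (-0.04) and DES (-0.20). For liver, 7 of 9 passed, with a median of 0.02, from APOA1 (0.40) and FGB (0.08) to TTR (-0.49) and SERPINA1 (-0.81).

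**Figure D4:**
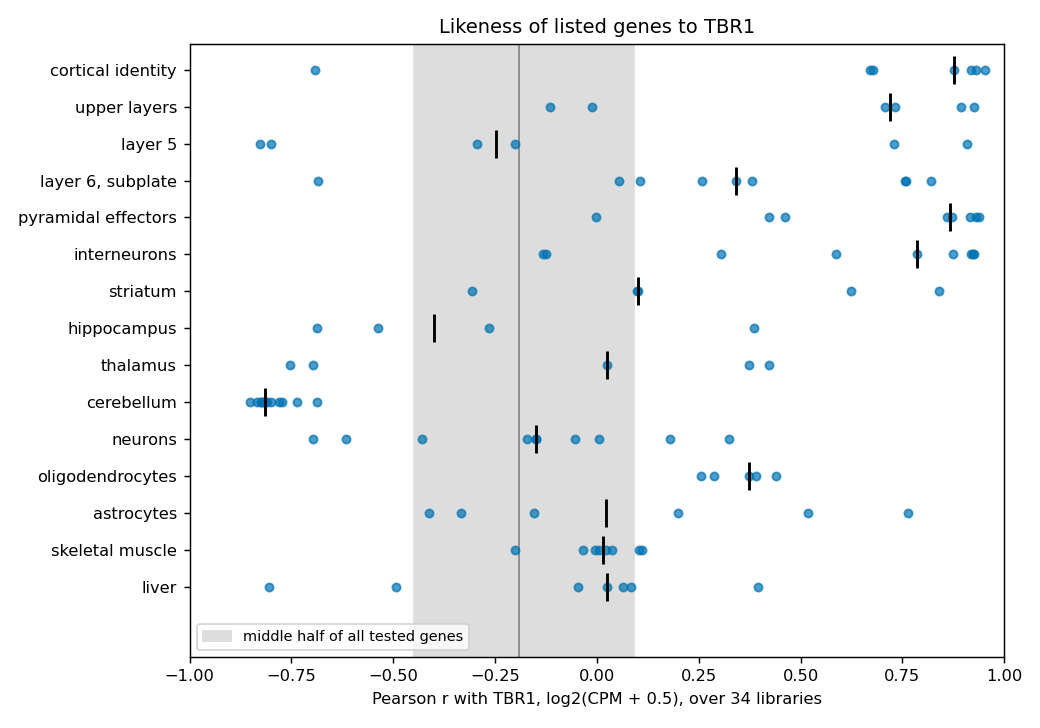
Pearson r with TBR1 on log2(CPM + 0.5) over 34 libraries for the measured genes of 15 lists. Each point is a gene and each black bar the list's median, and the grey line and band give the median (-0.19) and the middle 50% of all tested genes. Cortical identity, pyramidal and interneuron lists sit to the right and all 13 cerebellar genes (CBLN1 and CBLN3 included) to the left.

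The diets overlapped widely for every factor. TBR1 had a lowest, median and highest level of 5.52, 22.0 and 46.0 CPM on 25(OH)D (mean 23.5 ± 13.4, SD, n = 8), 2.43, 17.1 and 48.7 CPM on the combination (20.2 ± 16.1, n = 8), 2.58, 36.2 and 62.9 CPM on increased cholecalciferol (32.9 ± 19.6, n = 10), and 1.74, 23.7 and 45.0 CPM on standard cholecalciferol (22.4 ± 16.6, n = 8). Each diet held at least 1 library below 6 CPM and 1 above 44 CPM. The order of the medians, increased cholecalciferol, standard cholecalciferol, 25(OH)D and combination, had no neighbours that differed beyond their spread.

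FEZF2 had 2.53, 6.91 and 10.3 CPM on 25(OH)D (mean 6.51 ± 2.69, SD), 0.767, 6.75 and 9.39 CPM on the combination (5.62 ± 3.00), 0.152, 8.00 and 17.0 CPM on increased cholecalciferol (8.02 ± 5.46), and 0.537, 9.87 and 17.8 CPM on standard cholecalciferol (8.61 ± 6.27). Libraries above 15 CPM were found on the increased and standard cholecalciferol diets, and the groups overlapped below that. NEUROD6 had 0.149, 10.1 and 18.6 CPM on 25(OH)D (9.69 ± 5.92), 1.28, 10.3 and 24.2 CPM on the combination (11.7 ± 8.09), 3.53, 14.6 and 21.1 CPM on increased cholecalciferol (13.8 ± 5.12), and 1.07, 9.35 and 16.4 CPM on standard cholecalciferol (8.92 ± 6.33). Neighbouring medians again differed by less than the SD within diets.

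**Figure D5:**
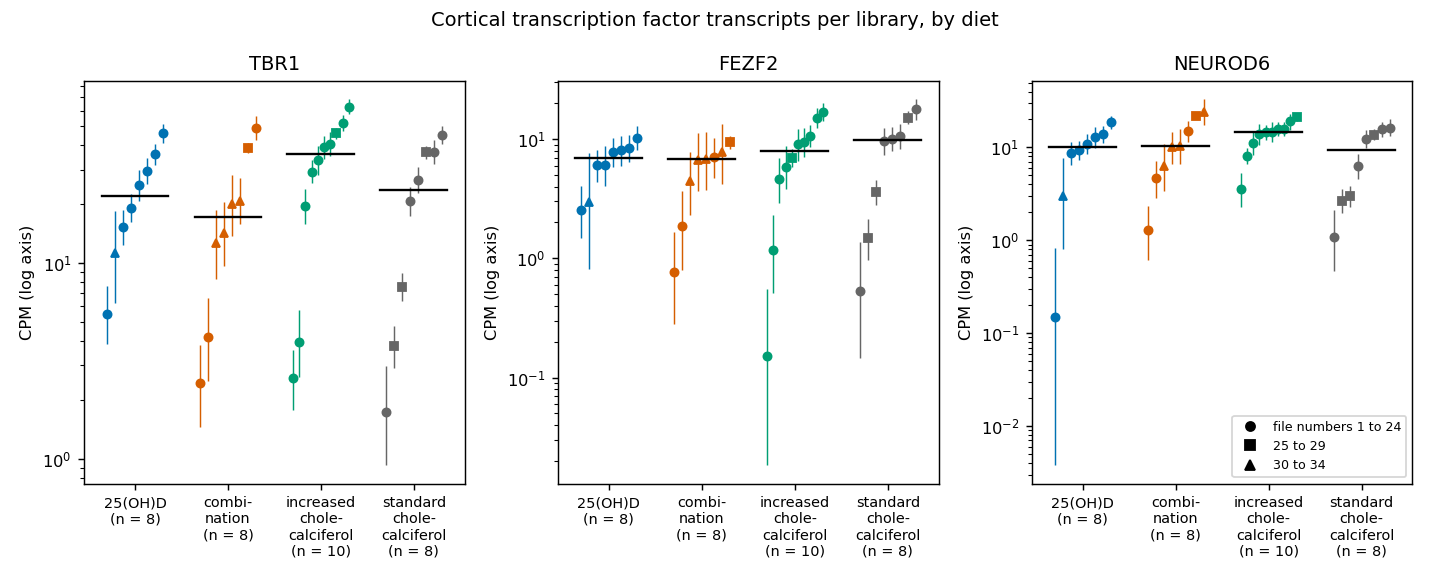
CPM of TBR1, FEZF2 and NEUROD6 (log axis) in each library by diet, with exact Poisson 95% intervals; the bar is the median, and the marker shape gives the run of file numbers. The TBR1 medians of 22.0, 17.1, 36.2 and 23.7 CPM sit inside the range of every diet.

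None of the 3 factors passed the threshold between diets by edgeR's quasi-likelihood test over 13974 genes with diet and sex in the model (Benjamini-Hochberg adjustment, threshold 0.05). Against standard cholecalciferol, the 25(OH)D diet gave log2 fold changes of 0.11 for TBR1 (SE 0.60, 95% interval -1.10 to 1.33), -0.30 for FEZF2 (SE 0.57, -1.46 to 0.86) and 0.22 for NEUROD6 (SE 0.54, -0.86 to 1.31), with an edgeR adjusted p of 1.00 for each. The combination gave -0.20 for TBR1 (SE 0.61, -1.43 to 1.03), -0.64 for FEZF2 (SE 0.60, -1.86 to 0.57) and 0.33 for NEUROD6 (SE 0.54, -0.77 to 1.43; edgeR adjusted p = 0.999 for each). Increased cholecalciferol gave 0.46 for TBR1 (SE 0.57, -0.69 to 1.62; edgeR adjusted p = 0.833), -0.08 for FEZF2 (SE 0.54, -1.19 to 1.02; 0.976) and 0.60 for NEUROD6 (SE 0.51, -0.43 to 1.63; 0.752). These comparisons share the control libraries. The intervals take in changes of 1 log2 unit in at least 1 direction for every factor. Of all tested genes, 0% were called in each of these comparisons by edgeR, DESeq2 and limma-voom alike, and 3.23%, 4.34% and 7.77% had an unadjusted edgeR p under 0.05 for 25(OH)D, the combination and increased cholecalciferol.

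Between the other diets, too, no factor passed. The combination against increased cholecalciferol gave -0.66 for TBR1 (SE 0.58), -0.56 for FEZF2 (SE 0.57) and -0.27 for NEUROD6 (SE 0.52; edgeR adjusted p = 0.931, 0.931 and 0.965). The 25(OH)D diet against increased cholecalciferol gave -0.35, -0.22 and -0.38 (SE 0.57, 0.55 and 0.51; edgeR adjusted p = 0.843, 0.903 and 0.803). The 25(OH)D diet against the combination gave 0.31, 0.34 and -0.11 (SE 0.61, 0.60 and 0.55; edgeR adjusted p = 0.907, 0.898 and 0.968). These 3 comparisons also had 0% of genes called, with 4.14%, 12% and 7.57% at an unadjusted edgeR p under 0.05. Without file numbers 30 to 34, TBR1 had a log2 fold change of 0.05 for the combination against standard cholecalciferol (SE 0.77, edgeR adjusted p = 0.993), the other side of 0. NEUROD6 changed side likewise for 25(OH)D against the combination, to 0.05 (SE 0.69, edgeR adjusted p = 0.980). An exact permutation of log2 levels over libraries gave adjusted p-values of 0.939 to 0.981 over 18 comparisons, with the smallest raw p, 0.0816, for NEUROD6 on increased against standard cholecalciferol (0.90 log2 units higher).

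The other cortex genes gave no call either. Of 36 genes that passed the filter in the lists of cortical identity, upper layers, layer 5, layer 6 and pyramidal cells, 0 were called by edgeR in each diet comparison. Their median log2 fold change ran from -0.28 for the combination against increased cholecalciferol to 0.26 for 25(OH)D against the combination, beside medians of -0.01 to 0.01 over all tested genes. At an unadjusted edgeR p under 0.05, 25(OH)D, the combination and increased cholecalciferol against standard cholecalciferol had 0 of 36 higher, with 0, 2 and 1 lower. The combination against increased cholecalciferol had 0 higher and 1 lower, 25(OH)D against increased cholecalciferol 1 higher and 2 lower, and 25(OH)D against the combination 0 higher and 2 lower. The share over all genes was 3.23% to 12%.

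Sex did not separate the factors. TBR1 had a lowest, median and highest level of 1.74, 23.7 and 62.9 CPM in 18 females, against 2.43, 22.9 and 46.0 CPM in 16 castrated males. FEZF2 had 0.152, 6.34 and 17.0 CPM in females, against 0.767, 7.96 and 17.8 CPM in castrated males. NEUROD6 had 0.149, 11.7 and 18.6 CPM in females, against 1.28, 11.9 and 24.2 CPM in castrated males. The log2 fold changes in females over castrated males were 0.12 for TBR1 (SE 0.42), -0.38 for FEZF2 (SE 0.41) and -0.22 for NEUROD6 (SE 0.37; edgeR adjusted p = 0.970, 0.882 and 0.920). Without file numbers 30 to 34 they were 0.26, -0.38 and -0.06 (edgeR adjusted p = 0.909, 0.844 and 0.982). By sex, edgeR called 11 genes (0.0787%), and 6.58% had an unadjusted edgeR p under 0.05. A test of whether diet differences varied with sex gave unadjusted edgeR p-values of 0.898, 0.669 and 0.999 for TBR1, FEZF2 and NEUROD6 (edgeR adjusted p = 1.00 for each), with 0% of genes called and 2.75% at an unadjusted edgeR p under 0.05.

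Ratios between the factors were compared between diets after their values were seen, by exact permutation of the diet labels over 18 tests. The lowest p was for FEZF2 over TBR1, with a median of 0.230 on increased cholecalciferol and 0.406 on standard cholecalciferol. The mean log2 ratio was lower by 0.84 on increased cholecalciferol (log2 difference -0.84, exact permutation p = 0.00727, adjusted p = 0.131). It ranged from -0.98 to -0.66 with any 1 library left out, and was -0.70 within file numbers 1 to 24 (exact permutation p = 0.0679). NEUROD6 over FEZF2 was higher on the combination than on standard cholecalciferol by 0.75 log2 units (medians 2.18 and 1.04, exact permutation p = 0.0174, adjusted p = 0.131), and by 0.87 without file numbers 30 to 34 (exact permutation p = 0.0162). On increased over standard cholecalciferol it was higher by 1.12 (medians 2.19 and 1.04, exact permutation p = 0.0219, adjusted p = 0.131), and by 0.67 without increased cholecalciferol replicate 1. NEUROD6 over TBR1 on 25(OH)D against the combination differed by -0.98 (medians 0.396 and 0.544, exact permutation p = 0.0426, adjusted p = 0.192), by -0.56 without 25(OH)D replicate 2 and by -0.83 without file numbers 30 to 34 (exact permutation p = 0.249). None of the 18 passed the adjustment.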

How the data were processed

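The authors deposited raw read counts per gene, 1 file per library, for 31907 Ensembl identifiers. Per the labels' protocols, Trizol RNA from frozen tissue went into a forward QuantSeq 3′ library kit. The tools named per the submitters' processing notes are TopHat, HTSeq, DESeq2 and FastQC. Not given in the sources used here were versions, genome build, annotation and strand setting. The 5 HTSeq category lines of each file were left out (16.4 to 29.9% of reads outside features, 3.63 to 4.68% ambiguous, 11.2 to 20.7% multiply aligned). Symbols came from a table that matched 15029 identifiers. Listed genes without an identifier could not be measured and count as not passing the filter.

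CPM use total gene counts. Diet and sex were tested with edgeR 4.0.16 (R 4.3.3; TMM, expression filter by diet, quasi-likelihood F-test, 13974 genes) in 1 model of all 34 libraries, since the design counts individuals. Replicate numbers follow accession order. Alternatives included DESeq2 1.42.0, limma 3.58.1 (voom), other scalings, no filter, runs of file numbers and each library left out. Correlations and their permutation p-values used numpy 2.4.6, and ranks and exact intervals used scipy 1.17.1. On simulated counts, edgeR recovered 40%, 53.8% and 58.2% of genes changed 2-fold for 25(OH)D, the combination and increased cholecalciferol against standard cholecalciferol. These runs tested 13696, 13737 and 13730 genes and made 3, 3 and 7 false calls. The changed genes were drawn at random, so the rates are averages over genes and were not computed for the 3 factors.

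The genes named are the 3 factors, CBLN1, CBLN3, the 5 highest and 5 lowest in r with each factor, and in each list the 2 highest and 2 lowest in r with TBR1; further list members are named as exceptions or at 0 after their values were seen. Some items that this rule names are not reported here. The members and lists were chosen with earlier results of these data known.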

Additional observations from a re-analysis of the deposited data

How the results depend on the processing

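No paired analysis was run, since the labels used here pair no animals and replicate numbers only follow accession order. No member passed the threshold between diets, between sexes or in the interaction under any alternative run. The r among the factors and with CBLN1 and CBLN3 kept its direction and stayed past the threshold under every planned scaling, pseudocount, run of file numbers and single library left out. The rho did so too, except for NEUROD6 with CBLN1 (-0.45) and CBLN3 (-0.44) within file numbers 1 to 24. In splits added after the values were seen, r within the combination group was -0.53 and -0.57 for TBR1, -0.36 and -0.39 for FEZF2 and -0.48 and -0.53 for NEUROD6 with CBLN1 and CBLN3, and without its replicate 3 it was -0.59 and -0.64 for FEZF2, -0.63 and -0.69 for NEUROD6, and 0.87 for TBR1 with FEZF2, in 7 libraries. Within the 25(OH)D group TBR1 with FEZF2 had 0.70. Below the gap of CBLN1, r with CBLN1 and CBLN3 was -0.20 and -0.17 for TBR1, -0.22 and -0.18 for FEZF2 and 0.035 and -0.0032 for NEUROD6, and 0.49 for FEZF2 with NEUROD6. Above the gap the last pair had 0.52. Above it without file numbers 30 to 34, in 8 libraries, r was -0.68 and -0.63 for TBR1, -0.62 and -0.49 for FEZF2 and -0.54 and -0.67 for NEUROD6 with CBLN1 and CBLN3, 0.39 for TBR1 with NEUROD6 and 0.15 for FEZF2 with NEUROD6. Below the gap without combination replicate 3, these were -0.021 and -0.057, -0.083 and -0.096, 0.24 and 0.13, and 0.11, with 0.21 for TBR1 with FEZF2. The cause was not tested.

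Weak relations crossed 0. With the neuron list, r under TMM-scaled sizes was 0.043 for TBR1 and 0.093 for FEZF2. After subtracting the list's own mean it was -0.49, -0.47 and -0.45 for the 3 factors, lower by construction. With the muscle list, TBR1 had 0.058 and FEZF2 0.092 under TMM-scaled sizes, TBR1 0.0023 within file numbers 1 to 24, and TBR1 0.00056 and FEZF2 0.025 without combination replicate 3. With total counts, r was 0.034, 0.023 and 0.027 at a pseudocount of 5 and 0.15, 0.088 and 0.067 on linear CPM for TBR1, FEZF2 and NEUROD6, and 0.0029 at a pseudocount of 1 and 0.0069 under TMM-scaled sizes for NEUROD6. The log2 range at a pseudocount of 0.1 was 6.15 for FEZF2 and 6.61 for NEUROD6.

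Uncalled log2 fold changes that changed sign were as follows. By limma-voom, FEZF2 had 0.51 on 25(OH)D against standard and 0.69 against increased cholecalciferol, TBR1 had 0.14 on the combination against standard, 0.0012 on 25(OH)D against increased cholecalciferol and -0.28 in females. By exact permutation FEZF2 had 0.014 on 25(OH)D against standard and 0.073 against increased cholecalciferol. With a term for runs of file numbers, TBR1 had 0.11 on the combination against standard, and without file numbers 30 to 34 it had 0.046. Within file numbers 1 to 24, NEUROD6 had -0.80 on the combination against standard, 0.91 on 25(OH)D against the combination and 0.33 in females, and TBR1 0.016 on 25(OH)D against increased cholecalciferol. Without file numbers 30 to 34, NEUROD6 had 0.055 on 25(OH)D against the combination. The causes were not tested. With 1 library left out, ranges that crossed 0 were -0.34 to 0.17 for NEUROD6 on 25(OH)D against the combination, -0.013 to 0.44 for NEUROD6 and -0.10 to 0.35 for TBR1 on 25(OH)D against standard, -0.57 to 0.033 for TBR1 on the combination against standard, -0.29 to 0.091 for FEZF2 on increased against standard and -0.025 to 0.30 for TBR1 in females. For r they were -0.11 to 0.040 (FEZF2), -0.090 to 0.073 (NEUROD6) and -0.072 to 0.066 (TBR1) with total counts, and -0.21 to 0.025 (FEZF2), -0.072 to 0.12 (NEUROD6) and -0.27 to 0.00056 (TBR1) with the muscle list. With the neuron list, leaving out 1 library gave -0.41 to -0.22 (FEZF2) and -0.44 to -0.26 (TBR1), past the threshold in some.

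Genes called on the combination against increased cholecalciferol numbered 1 with a term for runs, 2 within file numbers 1 to 24 and 1 without file numbers 30 to 34. On 25(OH)D against the combination they numbered 8 and 2 in the last 2 settings, and by sex 18 with a term for runs. The lowest FEZF2 and NEUROD6 levels rest on 2 reads and 1 read, in libraries of 13.2 M and 6.71 M counts.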
